A study of Mus musculus with 6 samples.

Results

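The adrenergic receptor genes described here are *Adrb1*, *Adrb3*, *Adra1a*, *Adra1b*, *Adra1d*, *Adra2a*, *Adra2b* and *Adra2c*, chosen by their symbols among the 36144 symbols of the gene table. All 8 symbols were present in the TPM table and in the summed estimated counts, and each is annotated as a protein-coding gene. Of these 8 genes, 6 had enough counts to be tested among 16069 genes, and *Adra2b* and *Adra2c* did not. These 8 genes are not the whole receptor family, so sums, shares, ratios and orders of levels below hold for these genes only.

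The data are 6 RNA-seq libraries of undissociated inguinal white adipose tissue (iWAT), 3 for each of the genotypes Cebpa_fl/fl and Cebpa_ASKO, taken from females on the C57BL6/J background at an age of 10 weeks. The mice were littermates in a random fed state on chow, both inguinal depots of a mouse were extracted together, lymph nodes were taken out, and all libraries carry the same batch number. Both genotypes carry floxed *Cebpa*, the gene for the transcription factor C/EBPα, and Cebpa_ASKO mice also carry the AdipoQ-Cre transgene. Cre is driven by the *Adipoq* promoter, which becomes active late in adipocyte differentiation, so cells in which that promoter is not active are not targeted.

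The total of estimated counts was 46237121, 46601320 and 49477671 in Cebpa_fl/fl libraries 1, 2 and 3, and 33141769, 37957065 and 42243013 in Cebpa_ASKO libraries 1, 2 and 3. Values below are given in that order of libraries. Normalized counts (CPM) are scaled to library size with TMM factors and serve to compare genotypes for a gene, whereas TPM also accounts for transcript length and serves to compare genes. A gene was called when the quasi-likelihood test of edgeR gave it a Benjamini-Hochberg adjusted p below 0.05, and p-values measure the spread between the libraries of single mice. The targeted gene *Cebpa* was 448, 465 and 498 CPM in Cebpa_fl/fl and 37.7, 45.8 and 37.2 CPM in Cebpa_ASKO, in the direction of the labels. Its log2 fold change was -3.55 (standard error, SE, 0.13, edgeR quasi-likelihood, Benjamini-Hochberg adjusted p = 0.000163). *Adipoq*, the adipocyte hormone gene whose promoter drives Cre, had a log2 fold change of -2.93 (SE 0.19, edgeR adjusted p = 0.000783).

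Adrenergic receptors are G protein-coupled receptors for noradrenaline and adrenaline. The β receptors act through Gs to raise cyclic AMP, which activates protein kinase A (PKA) and lipolysis in adipocytes, and the β3 receptor is the main β receptor of rodent fat. The α2 receptors act through Gi to lower cyclic AMP, and the α1 receptors act through Gq and phospholipase C.

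Of the 6 tested receptor genes, 1 was called, *Adrb3*, which fell in Cebpa_ASKO iWAT. Over all genes tested 840 were called (5.23%), 223 higher (1.39%) and 617 lower (3.84%), and DESeq2 called 10.7%, with 3.98% higher and 6.7% lower. An unadjusted p below 0.05 was reached by 3185 genes (19.8%) with edgeR. The number of genes called by edgeR at an adjusted p below 0.05 was 840 with all libraries. It was 508 without Cebpa_fl/fl 1, 502 without Cebpa_fl/fl 3, 311 without Cebpa_ASKO 1 and 363 without Cebpa_ASKO 2. The libraries of the genotypes did not overlap in CPM for 3 of the 6 tested receptor genes, *Adrb3* and *Adra2a* lower and *Adrb1* higher, beside 26.1% of all genes tested (12.9% higher and 13.2% lower).

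*Adrb3* encodes the β3-adrenergic receptor and lies on the minus strand at chr8:27225776-27250616 (GRCm38). Its level was 275, 450 and 458 CPM in Cebpa_fl/fl, and 3.61, 2.88 and 4.69 CPM in Cebpa_ASKO. Every Cebpa_ASKO library lay far below every Cebpa_fl/fl library, and Cebpa_fl/fl 1 was the lowest of the controls. The mean in Cebpa_ASKO was 0.946% of the control mean, and the log2 fold change of -6.72 (SE 0.32, edgeR quasi-likelihood, Benjamini-Hochberg adjusted p = 0.000317) was the 18th most negative of 16069. The estimated counts behind the low values were 114, 113 and 209, so the transcript was still detected in each Cebpa_ASKO library. In bulk tissue, fewer cells of a type and less RNA per cell cannot be told apart.

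*Adrb1* encodes the β1-adrenergic receptor, the main β receptor of the heart, and lies on the plus strand at chr19:56722199-56733113. Its level was 9.58, 6.06 and 7.73 CPM in Cebpa_fl/fl, and 17.2, 20.8 and 9.76 CPM in Cebpa_ASKO. The genotypes did not overlap, but Cebpa_ASKO 3 lay close to the highest control. The log2 fold change was 1.03 (SE 0.30), and *Adrb1* was not called (edgeR quasi-likelihood, Benjamini-Hochberg adjusted p = 0.121). DESeq2 called it, with a log2 fold change of 1.01 (SE 0.32, adjusted p = 0.0181). Without Cebpa_ASKO 3 edgeR also called it, with a log2 fold change of 1.27 (SE 0.22, adjusted p = 0.0382), and over all alternatives the adjusted p ran from 0.0181 to 0.359.

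The α1 receptor genes overlapped between genotypes. *Adra1a*, the gene for the α1A receptor, was 31.7, 14.6 and 27.2 CPM in Cebpa_fl/fl and 23.1, 17.5 and 29.8 CPM in Cebpa_ASKO. Its log2 fold change of -0.06 (SE 0.31, edgeR adjusted p = 0.949) had the other sign with total-count scaling, with a length offset, on the TPM scale, and without Cebpa_fl/fl 1 (0.17), Cebpa_fl/fl 3 (0.02) or Cebpa_ASKO 2 (0.10). *Adra1d*, for the α1D receptor, was 3.52, 4.28 and 5.11 CPM in Cebpa_fl/fl and 6.97, 4.19 and 4.29 CPM in Cebpa_ASKO. Cebpa_ASKO 1 stood above the other libraries, and the log2 fold change of 0.26 (SE 0.27, edgeR adjusted p = 0.676) was -0.02 without it. *Adra1b*, for the α1B receptor, was below 1 CPM in every library, with a log2 fold change of 0.16 (SE 0.42, edgeR adjusted p = 0.889) that was -0.16 without Cebpa_fl/fl 3, its lowest library.

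Among the α2 receptor genes only *Adra2a* passed the filter on low counts. *Adra2a*, at chr19:54044151-54048982 on the plus strand, encodes the α2A receptor. Its level was 4.86, 4.90 and 3.20 CPM in Cebpa_fl/fl, and 2.54, 2.96 and 2.38 CPM in Cebpa_ASKO. The Cebpa_ASKO libraries were all below the controls, with Cebpa_ASKO 2 close to Cebpa_fl/fl 3. The log2 fold change of -0.72 (SE 0.23) was not called by edgeR's quasi-likelihood test (Benjamini-Hochberg adjusted p = 0.157) or by DESeq2 (adjusted p = 0.0511). *Adra2b* had 9, 4 and 11 counts in Cebpa_fl/fl and 5, 9 and 15 in Cebpa_ASKO, and *Adra2c* had 3, 7 and 3 against 5, 1 and 3. Both overlapped between genotypes, and a difference was not detectable at this depth.

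**Figure D1:**
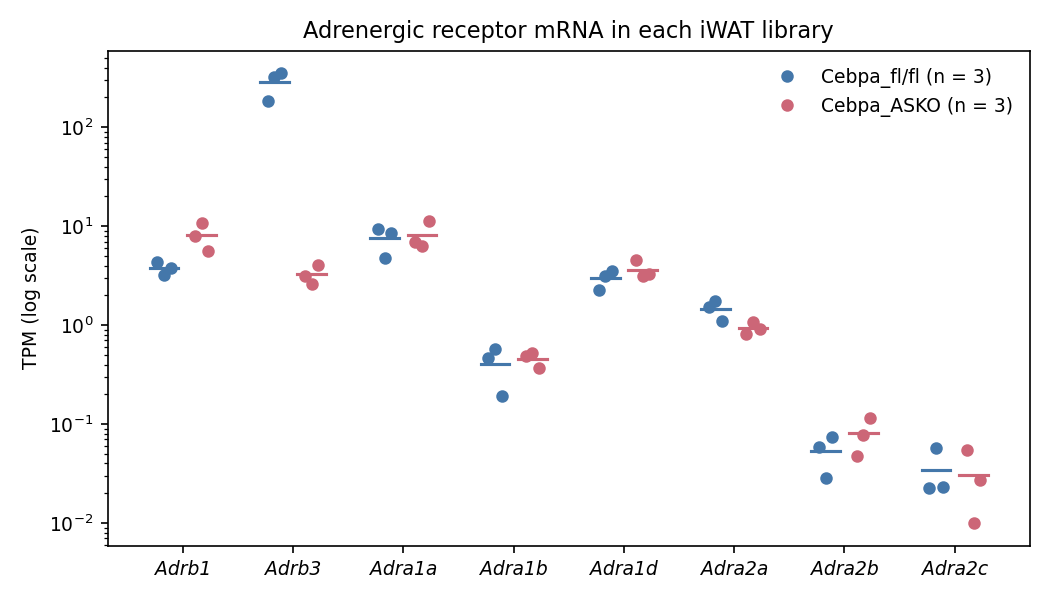
TPM of the 8 adrenergic receptor genes on a log axis, with 1 point for each library, a line at the mean, and 3 libraries of each genotype. *Adrb3* lay between 186 and 351 TPM in Cebpa_fl/fl and between 2.60 and 4.08 TPM in Cebpa_ASKO.

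The order of the levels, compared in TPM, differed between genotypes. In Cebpa_fl/fl *Adrb3* was highest at 186, 325 and 351 TPM, followed by *Adra1a* at 9.28, 4.77 and 8.56 TPM. *Adrb1* (mean 3.78 TPM) and *Adra1d* (mean 2.97 TPM) came next and overlapped, followed by *Adra2a* (mean 1.46 TPM) and *Adra1b* (mean 0.408 TPM). *Adra2b* and *Adra2c* were lowest and overlapped, and all other neighbours in the order were apart. In Cebpa_ASKO *Adra1a* at 6.89, 6.34 and 11.2 TPM and *Adrb1* at 7.96, 10.8 and 5.63 TPM were highest and overlapped. *Adra1d* (mean 3.64 TPM) and *Adrb3* (mean 3.28 TPM) overlapped below them, followed by *Adra2a* (mean 0.938 TPM), *Adra1b* (mean 0.460 TPM), and *Adra2b* and *Adra2c*, which overlapped.

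The summed level of the 8 receptor genes was 204, 338 and 369 TPM in Cebpa_fl/fl and 24.0, 24.6 and 25.6 TPM in Cebpa_ASKO. Without *Adrb3*, the remaining 7 genes summed to 18.0, 13.5 and 17.2 TPM in Cebpa_fl/fl and 20.8, 22.0 and 21.5 TPM in Cebpa_ASKO. *Adrb3* thus made up nearly the whole sum in controls and a minor part of it in Cebpa_ASKO.

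As a share of the summed TPM, *Adrb3* held 91.2%, 96.0% and 95.3% in Cebpa_fl/fl and 13.1%, 10.6% and 16.0% in Cebpa_ASKO (p = 0.1 by an exact permutation test, two-sided, in which 20 arrangements of 6 libraries can give no smaller p). The share of *Adrb1* was 2.15%, 0.946% and 1.02% in Cebpa_fl/fl and 33.2%, 44.03% and 22.0% in Cebpa_ASKO. The shares of the other genes rise by construction when that of *Adrb3* falls, so they are no separate result. Within a library *Adrb3* exceeded *Adrb1* in TPM by 42.5, 101 and 93.8 times in Cebpa_fl/fl, whereas in Cebpa_ASKO *Adrb1* exceeded *Adrb3* by 2.53, 4.15 and 1.38 times. The ratio of the summed TPM of *Adrb1* and *Adrb3* to that of *Adra2a*, *Adra2b* and *Adra2c* was 118, 179 and 299 in Cebpa_fl/fl and 12.02, 11.4 and 9.27 in Cebpa_ASKO, without overlap. From coding transcripts only, an alternative chosen after seeing the data, *Adrb1* exceeded *Adrb3* in Cebpa_ASKO by 4.38, 6.004 and 1.66 times, and the share of *Adrb3* was 88.7%, 95.2% and 93.4% in Cebpa_fl/fl and 7.40%, 7.14% and 11.8% in Cebpa_ASKO. In Cebpa_ASKO *Adrb3* (mean 1.94 TPM) then lay below *Adra1d* without overlap, and *Adra1d* overlapped with *Adrb1*.

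**Figure D2:**
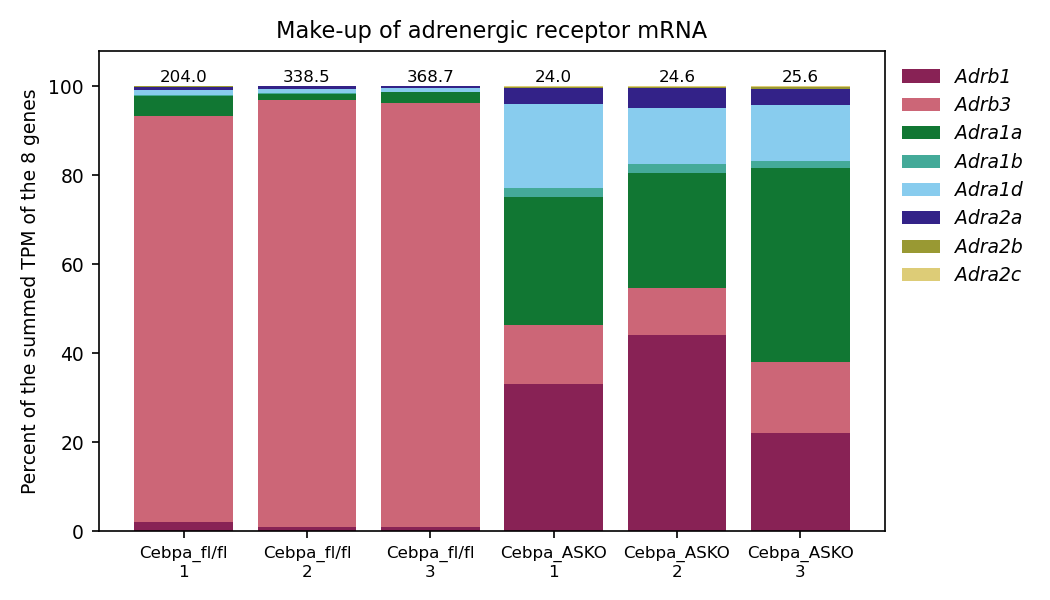
Share of each of the 8 genes in their summed TPM, in percent, for each library, with the sum in TPM printed above each bar. *Adrb3* held from 91.2% to 96.0% in Cebpa_fl/fl and from 10.6% to 16.0% in Cebpa_ASKO.

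The deposited values are by transcript, and *Adrb3* has 3 annotated coding transcripts with 2 coding ends. The annotated transcripts Adrb3-204 and Adrb3-205 have no coding sequence, and they held 27.0%, 22.0% and 32.4% of *Adrb3* TPM in Cebpa_fl/fl and 50.3%, 39.9% and 33.9% in Cebpa_ASKO. The transcripts Adrb3-201 and Adrb3-203 share their coding sequence of 400 codons, and Adrb3-202 codes for 404 codons with another end, so the transcripts differ in the tail of the receptor. The shared coding exon is chr8:27227257-27228419 on the minus strand (GRCm38). The sequences below show the last 30 bases of that exon in lower case and the differing coding end with its stop codon in capitals, which lies at chr8:27226754-27226793 for Adrb3-201 and at chr8:27226845-27226896 for Adrb3-202.
Adrb3-201: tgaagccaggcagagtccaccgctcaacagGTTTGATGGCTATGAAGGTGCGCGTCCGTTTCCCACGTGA
Adrb3-202: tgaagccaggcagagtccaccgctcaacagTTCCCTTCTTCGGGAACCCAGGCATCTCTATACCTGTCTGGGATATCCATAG

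Adrb3-201 had 7462, 12636 and 13139 estimated counts in Cebpa_fl/fl and 70.5, 50.9 and 91.1 in Cebpa_ASKO. Adrb3-203 had 4095, 7506 and 6946 in Cebpa_fl/fl and 28.8, 48.0 and 96.1 in Cebpa_ASKO. Both were far lower in every Cebpa_ASKO library. None of the 31-base words of Adrb3-203 occurs in a transcript of another gene, while 487 of the 2765 words of Adrb3-201, 367 of the 420 of Adrb3-204 and 213 of the 639 of Adrb3-205 do. The counts of Adrb3-204 and Adrb3-205, and with them the TPM and shares of *Adrb3* over all transcripts, are thus less certain.

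Adrb3-202 had 232, 341 and 304 estimated counts in Cebpa_fl/fl, which was 1.97%, 1.66% and 1.49% of the counts of the coding transcripts, and 0 in each Cebpa_ASKO library. A count of 0 allows up to 3 counts, or 3.02%, 3.03% and 1.60% of the coding counts by library, and no Cebpa_ASKO library alone excludes all 3 control shares. Over the group, a limit taken after the values were seen, 3 of 385 coding counts are 0.778%, below each control share. These limits cover counting error only, and not the spread between mice or the division of reads among transcripts. An antisense transcript is annotated across *Adrb3* and another across *Adra1d*, and whether the libraries keep strand is not given in the sources used here, so reads from either strand cannot be told apart.

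The 5 genes whose CPM profile over the 6 libraries was most like that of *Adrb3*, of 15033 compared, were *Mup7*, *Mup14*, *Hpd*, *Mup16* and *Tshr*. Their root mean square difference from *Adrb3* in centred log2 CPM ran from 0.54 to 0.74. These profiles were made with a prior count of 2, which limits how low a gene with 0 or few counts can lie. The likeness of the *Mup* genes and *Hpd* to *Adrb3* thus depends on that setting. By edgeR the log2 fold changes were -11.4 for *Mup7*, -8.98 for *Mup14*, -9.39 for *Hpd*, -8.36 for *Mup16* and -7.35 for *Tshr*, beside -6.72 for *Adrb3*. The *Mup* genes encode major urinary proteins, a family of near-identical copies whose counts are uncertain singly, and *Hpd* encodes an enzyme of tyrosine breakdown. *Mup7* and *Hpd* had 0 counts in each Cebpa_ASKO library, against 408, 412 and 309 counts and 66, 105 and 105 counts in Cebpa_fl/fl. *Tshr*, the receptor for thyrotropin, was 53.5, 85.5 and 75.6 CPM in Cebpa_fl/fl and 0.127, 0.562 and 0.561 CPM in Cebpa_ASKO.

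The genes around the receptors were described with 11 lists of 114 genes, of which 108 were tested. In these lists 2 genes were called higher and 18 lower. Over all genes tested edgeR called 1.39% higher and 3.84% lower, and these shares stand beside the edgeR counts of every list below. The median log2 fold change in the lists was -0.05, beside 0.02 over all genes tested. Without Cebpa_ASKO 1 the number called in the lists was 12.

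Of the 10 G protein α subunits, edgeR called only *Gnai1*, for an inhibitory Gi subunit. Its level was 118, 183 and 132 CPM in Cebpa_fl/fl and 8.08, 6.64 and 10.9 CPM in Cebpa_ASKO. *Gnai1* fell in every Cebpa_ASKO library to below the lowest control, with a log2 fold change of -4.08 (SE 0.26, edgeR quasi-likelihood, Benjamini-Hochberg adjusted p = 0.000742). *Gnao1*, for a Go subunit of the same family, was 13.6, 5.21 and 6.89 CPM in Cebpa_fl/fl and 26.1, 25.8 and 17.3 CPM in Cebpa_ASKO. It was higher without overlap and was called by DESeq2 (adjusted p = 0.00246), but not by edgeR (log2 fold change 1.43, SE 0.37, adjusted p = 0.0865). Of the 8 tested adenylyl cyclases, which make cyclic AMP, *Adcy5* was called, from 142, 154 and 160 CPM in Cebpa_fl/fl to 35.1, 27.3 and 48.9 CPM in Cebpa_ASKO. Its log2 fold change was -2.03 (SE 0.21, edgeR adjusted p = 0.00362).

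Of the 8 PKA subunits and anchors, *Prkar2b*, for the regulatory subunit RIIβ of adipose tissue, fell by 1.21 on the log2 scale (SE 0.15, edgeR adjusted p = 0.00728). *Akap1*, which anchors PKA at mitochondria, rose by 0.64 (SE 0.13, edgeR adjusted p = 0.0425), and it lost its call in each of the 6 fits without a library (log2 fold changes from 0.52 to 0.73, edgeR adjusted p from 0.0502 to 0.163). Of the 10 cyclic AMP phosphodiesterases, *Pde3b*, for the phosphodiesterase that insulin activates in adipocytes, fell by 1.24 (SE 0.15, edgeR adjusted p = 0.00571). It was not called by limma on log2(TPM + 1) without a filter (adjusted p = 0.0525, the highest of the alternatives, with 2.36e-12 by DESeq2 the lowest).

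The 9 Gq effectors had a median log2 fold change of 0.20. Without overlap, 4 genes were higher and 2 lower, beside 12.9% higher and 13.2% lower of all genes tested. edgeR called only *Plcb1* and DESeq2 also called *Itpr1* and *Itpr2*, for calcium release channels of the endoplasmic reticulum, which had log2 fold changes of 0.56 and 0.81 by edgeR (adjusted p = 0.0519 and 0.0700). *Plcb1*, for a phospholipase C, fell by 1.19 on the log2 scale (SE 0.19, edgeR adjusted p = 0.0178). It was not called without Cebpa_fl/fl 1 (log2 fold change -1.22, edgeR adjusted p = 0.0540) or without Cebpa_ASKO 1 (-1.22, adjusted p = 0.0893). Of the 12 receptor kinases, arrestins and RGS proteins, which end receptor signalling, edgeR called 0, with 2 at an unadjusted p below 0.05 (19.8% of all genes tested) and 1 called lower by DESeq2 (*Rgs4*). The most abundant by TPM were *Rgs5* and *Rgs2*, regulators of G protein signalling, at 88.7% and 119% of the control mean in CPM, with overlapping libraries.

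The receptors that share these G proteins were lower in several cases. Of 8 Gi-coupled receptors known to restrain lipolysis, 6 were called lower, with a median log2 fold change of -2.30. *Adora1*, for an adenosine receptor, and *Npy1r*, for a neuropeptide Y receptor, overlapped between genotypes and were not called (edgeR adjusted p = 0.941 and 0.950). They were at 103% and 97.6% of the control mean in CPM. *Cnr1*, for the cannabinoid receptor CB1, was 18.7, 18.9 and 18.4 CPM in Cebpa_fl/fl and 0.666, 0.460 and 0.471 CPM in Cebpa_ASKO, a log2 fold change of -5.14 (SE 0.18, edgeR adjusted p = 0.000163). *Ffar2*, for a short-chain fatty acid receptor, was 25.2, 44.3 and 25.9 CPM against 2.06, 1.66 and 2.00 CPM, and fell by 4.06 on the log2 scale. For both genes the genotypes were far apart in every library.

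The other called Gi-coupled receptor genes were *Ptger3*, for a prostaglandin E2 receptor (log2 fold change -2.58), *Sucnr1*, for the succinate receptor (-2.42), *Hcar2*, for the receptor of 3-hydroxybutyrate and niacin (-2.18), and *Hcar1*, for the lactate receptor (-1.49). *Sucnr1* was called whichever library was left out. *Ptger3* was not called without Cebpa_ASKO 1 or Cebpa_ASKO 2 (-2.67 in each case, edgeR adjusted p = 0.0750 and 0.0629). *Hcar2* was not called without Cebpa_fl/fl 1, Cebpa_fl/fl 3 or Cebpa_ASKO 1 (edgeR adjusted p = 0.0732, 0.0749 and 0.138), and *Hcar1* without Cebpa_fl/fl 3, Cebpa_ASKO 1 or Cebpa_ASKO 2 (edgeR adjusted p = 0.0628, 0.113 and 0.0611).

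Of the 11 tested Gs-coupled receptors other than adrenergic receptors, 3 were called lower and 1 higher (3.84% and 1.39% of all genes tested). Their median log2 fold change was -0.84. *Tshr* fell by 7.35 on the log2 scale (SE 0.42, edgeR adjusted p = 0.000585), and *Mc2r*, for the corticotropin receptor, fell by 5.80 (SE 0.63, edgeR adjusted p = 0.00426), from 9.02, 16.5 and 11.3 CPM to 0.0317, 0.153 and 0.426 CPM. Without Cebpa_ASKO 3 the log2 fold change of *Mc2r* was -6.95 (edgeR adjusted p = 0.00541). *Adora2a*, for an adenosine receptor, fell by 1.21 (edgeR adjusted p = 0.0457), and was called without Cebpa_fl/fl 2 but in no other fit without a library (edgeR adjusted p from 0.0290 to 0.146), nor with the length offset or in any of 3 limma fits, so that 7 of 16 alternatives called it. *Sctr*, for the secretin receptor, rose by 1.11 (edgeR adjusted p = 0.0329), from 10.2, 15.9 and 10.4 CPM to 30.3, 26.6 and 22.0 CPM. Its call was lost without Cebpa_fl/fl 1, Cebpa_fl/fl 3, Cebpa_ASKO 1 or Cebpa_ASKO 2 (edgeR adjusted p = 0.101, 0.0956, 0.137 and 0.125).

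**Figure D3:**
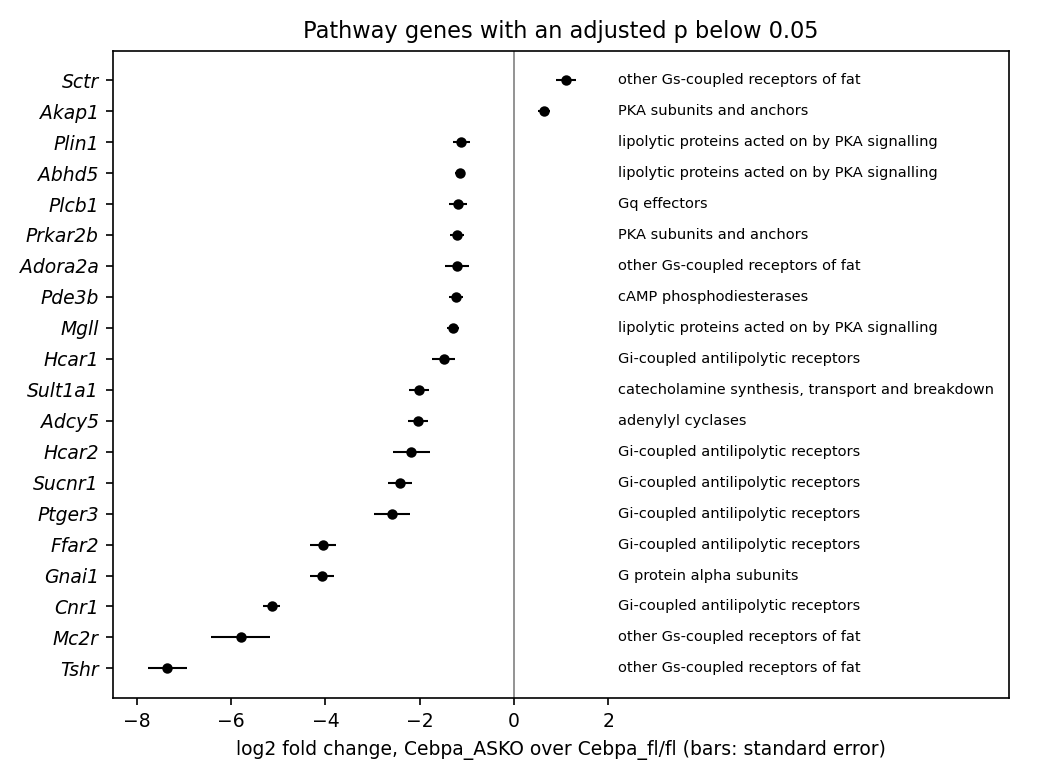
Log2 fold changes of the 20 called genes of the pathway lists, Cebpa_ASKO over Cebpa_fl/fl, as points with bars for the standard error (3 libraries of each genotype), with the list of each gene at the right. Of these genes 18 lie below 0 and 2 above, from -7.35 for *Tshr* to 1.11 for *Sctr*.

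Of 6 genes for proteins that carry out or control lipolysis, 3 were called lower (5 by DESeq2, with *Pnpla2* and *Lipe*), with a median log2 fold change of -0.96. *Mgll*, for monoglyceride lipase, fell by 1.30 (SE 0.12), and *Abhd5*, for the activator of adipose triglyceride lipase, by 1.15 (SE 0.11). *Plin1*, which coats the lipid droplet, fell by 1.12 (SE 0.18, edgeR adjusted p = 0.0187), and was not called without Cebpa_ASKO 1 (-1.23, adjusted p = 0.0656) or Cebpa_ASKO 2 (-1.16, adjusted p = 0.0806). Of 14 genes that respond to cyclic AMP or mediate that response, edgeR called 0, with 1 at an unadjusted p below 0.05 (19.8% of all genes tested) and 0 by DESeq2. *Ucp1*, the thermogenic uncoupling protein gene, was 733, 19.4 and 112 CPM in Cebpa_fl/fl and 248, 224 and 181 CPM in Cebpa_ASKO. The controls spread on both sides of the Cebpa_ASKO libraries, and the log2 fold change of -0.41 (SE 1.07, edgeR adjusted p = 0.890) was 1.73 without Cebpa_fl/fl 1. *Crtc2*, for a coactivator of CREB, was at 96.7% of the control mean. Like *Crtc3* and *Creb1* in the same list, it mediates the response, so its level is no measure of it.

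Of 16 genes for catecholamine synthesis, transport and breakdown, 12 were tested and 1 was called by edgeR (3 by DESeq2, all lower, with *Maob* and *Slc22a3*). *Sult1a1*, for a sulfotransferase that conjugates phenols and catecholamines, was 150, 273 and 208 CPM in Cebpa_fl/fl and 52.9, 49.3 and 53.4 CPM in Cebpa_ASKO, without overlap. Its log2 fold change was -2.02 (SE 0.22, edgeR adjusted p = 0.00387). Among the called pathway genes, *Plcb1*, *Plin1*, *Hcar1*, *Hcar2* and *Sctr* were, like *Pde3b* and *Adora2a*, not called by limma on log2(TPM + 1) without a filter (adjusted p from 0.0700 to 0.115 for these 5). On the log2(TPM + 1) scale the log2 fold changes of *Adrb3* (-6.04), *Tshr* (-4.34), *Ffar2* (-3.40), *Mc2r* (-3.19) and *Cnr1* (-2.15) were smaller in size, and limma called all 5.

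Markers of the cells in the tissue moved with genotype too. The 12 adipocyte markers summed to 28582, 37403 and 32319 TPM in Cebpa_fl/fl and 12828, 12433 and 11319 TPM in Cebpa_ASKO, with 8 called lower and none at 0. *Fabp4*, the most abundant, was 12782, 15603 and 11427 TPM against 8493, 7504 and 6840 TPM. It was lower without overlap and was called by DESeq2 but not by edgeR (log2 fold change -0.86, edgeR adjusted p = 0.107). *Lep*, *Aqp7* and *Slc2a4* overlapped between genotypes and were not called, at 74.4%, 82.6% and 99.9% of the control mean in CPM. The part of these markers in the lower levels of *Adrb3* and the other called genes was not tested.

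The 10 skeletal muscle markers summed to 500, 838 and 562 TPM in Cebpa_fl/fl and 2295, 5062 and 1839 TPM in Cebpa_ASKO, with 9 called higher, none at 0, and *Ckm* most abundant over the 6 libraries at 77.2, 124 and 71.9 TPM against 383, 851 and 305 TPM. *Acta1*, named after its values were seen, was close to it, with a higher mean in Cebpa_fl/fl (98.8 against 90.9 TPM) and a lower one in Cebpa_ASKO (502 against 513 TPM). The 10 smooth muscle and pericyte markers summed to 330, 461 and 438 TPM and to 462, 616 and 516 TPM, with *Acta2* most abundant. None of the 10 was at 0, and edgeR called 0 of them, with 6 at an unadjusted p below 0.05 (19.8% of all genes tested) and 2 called by DESeq2. Cebpa_ASKO libraries were higher in each case, but the smooth muscle sums overlapped without *Acta2* (217, 299 and 289 TPM against 290, 370 and 317 TPM). The part of these cells in the levels of *Adrb1* and the α1 receptor genes was not tested.

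Summed mammary epithelium markers (*Krt18* most abundant, 0 of 7 tested called by edgeR, 5 at an unadjusted p below 0.05 beside 19.8% of all genes tested, and 3 called by DESeq2) were 579, 469 and 882 TPM in Cebpa_fl/fl and 1158, 1188 and 1391 TPM in Cebpa_ASKO. Schwann cell markers (*S100b* most abundant, 1 of 6 called higher) were 102, 116 and 71.9 TPM against 226, 196 and 171 TPM. Without *S100b* the other 5 summed to 88.5, 107 and 66.7 TPM against 116, 100 and 126 TPM, which overlap. Hepatocyte markers (*Alb* most abundant, 2 of 4 called lower) were 15.9, 22.9 and 21.5 TPM against 3.35, 3.92 and 0.800 TPM. Without *Alb* the other hepatocyte markers summed to 1.13, 1.03 and 1.27 TPM against 0.0353, 0.191 and 0.103 TPM. With all members each of these sums was apart between genotypes, and their part in the receptor levels was not tested. No marker in these lists was at 0 in every library, but *Wap*, of the mammary list, and *Ttr*, of the hepatocyte list, had only 1 count, in Cebpa_ASKO 1.

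The sums overlapped between genotypes for the other lists. They ran over the 6 libraries from 639 to 3504 TPM for brown and beige adipocytes (*Cox8b* most abundant, 0 of 8 called by edgeR, 3 at an unadjusted p below 0.05 and 1 called by DESeq2), from 149 to 253 TPM for endothelium (*Egfl7*, 2 of 8 called lower by edgeR, 4 called by DESeq2, 5 at an unadjusted p below 0.05, beside 19.8% of all genes tested for both lists, median log2 fold change -0.54), from 1879 to 4032 TPM for fibroblasts and progenitors (*Dcn*), from 957 to 2790 TPM for macrophages (*Lyz2*) and from 32.9 to 83.4 TPM for keratinocytes (*Sbsn*). Of the brown and beige markers *Cidea* and *Cox7a1* (log2 fold changes of 2.00 and 1.90, edgeR adjusted p = 0.166 and 0.247) were higher and *Elovl3* (-3.87, edgeR adjusted p = 0.113, DESeq2 0.00934) was lower, each without overlap. The part of these cells in the receptor levels was not tested. Lymphocyte markers (*Ptprc* most abundant) summed to 196 TPM in Cebpa_fl/fl 1 and to between 13.1 and 29.4 TPM elsewhere, so that library stood apart. *Adrb3* was called without it, with a log2 fold change of -6.92. Markers of sympathetic nerve and chromaffin cells, the sources of catecholamines, summed to between 5.83 and 10.2 TPM. *Uchl1*, the most abundant, was 5.01, 8.30 and 3.27 TPM in Cebpa_fl/fl and 6.39, 5.49 and 6.60 TPM in Cebpa_ASKO. *Dbh*, for the enzyme that makes noradrenaline, was at 0 in every library. Nerve supply and catecholamines were not measured, and these mRNA levels do not stand in for them.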

How the data were processed

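Poly-A enriched RNA from whole iWAT was sequenced by Illumina TruSeq chemistry, and genotype and replicate were taken from the labels. The authors deposited an estimated count of every transcript for each library, made with kallisto 0.44.0 by the submitters' processing notes, which also list the builds GRCh38.p12 and GRCm38.p6 without a role. The authors also deposited TPM, a level per transcript length, for transcripts and for gene symbols. The settings of kallisto are not given in the sources used here. kallisto divides reads among similar transcripts.

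Transcripts were matched by identifier to GENCODE M21 (GRCm38), and 116816 of 118489 matched. Of *Mup14*, only part of the transcripts matched. Estimated counts were summed by symbol for 35999 symbols and rounded. edgeR 4.0.16 (quasi-likelihood test, TMM, its default filter on low counts, Benjamini-Hochberg adjustment over 16069 genes) gave the main values with R 4.3.3. The study names DESeq2, and DESeq2 1.42.0 and limma 3.58.1 were run as alternatives, besides other scalings, filters, a length offset, a replicate block and fits without each library. Standard errors are the log2 fold change over the root of F. TPM from coding transcripts only and marker sums without the most abundant gene were added after seeing the data. Permutation tests (scipy 1.17.1) were exact and two-sided. The scripts were tested on simulated data, where a larger part of the calls of DESeq2 than of edgeR was false, so a call by DESeq2 alone is weaker. Replicates differed by more than sampling noise. Coding ends and shared words of 31 bases were read from GENCODE M21 transcript sequences.

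Named were the 8 receptors, *Cebpa* and *Adipoq*. Of each pathway list, the called members were named, up to 6 by size of change, or the 2 most abundant where none was called. Of each marker list, the most abundant gene and any at 0 throughout were named, and for a called receptor the 5 genes with the nearest profile of log2 CPM (prior count of 2), leaving out Gm and Rik symbols. The value of 1 marker gene is not reported here. *Gnao1*, *Itpr1*, *Itpr2*, *Rgs4*, *Pnpla2*, *Lipe*, *Maob*, *Slc22a3*, *Acta1*, *Cidea*, *Cox7a1* and *Elovl3* were added after their values were seen. So were *Crtc3*, *Creb1*, *Adora1*, *Npy1r*, *Lep*, *Aqp7*, *Slc2a4*, *Wap* and *Ttr*. The members and lists were chosen with earlier results of these data known.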

Additional observations from a re-analysis of the deposited data

How the results depend on the processing

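Under 16 alternatives *Adrb3*, *Cebpa* and *Adipoq* kept their direction and call, with *Adrb3* between -6.94 and -6.04 on the log2 scale, and *Adra2a* stayed negative and not called. *Adrb1* was called by DESeq2 (1.01) and without Cebpa_ASKO 3, and ran from 0.77 to 1.27 with 1 library left out. The cause of the changes below was not tested. All 8 shares and both log2 ratios kept their direction under 9 alternatives, 1 of them (coding transcripts only) chosen after seeing the data. The shares of the other genes rise by construction when that of *Adrb3* falls, and both ratios contain *Adrb3*, so these are not separate results.

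DESeq2 called 1813 genes (676 higher, 1137 lower), with all 840 calls of edgeR among them, and limma on log2(TPM + 1) without a filter called 359 (74 higher, 285 lower). With 1 library left out, and so fewer samples, edgeR called from 311 to 922 genes, from 33 to 264 higher and from 278 to 658 lower, and from 12 to 22 pathway genes.

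*Adra1a* was positive with total counts (0.0015), the length offset (0.021), limma on log2(TPM + 1) with or without a filter (0.11 in both) and on log2(TPM + 0.1) (0.12), and ran from -0.34 to 0.17 with 1 library left out. *Adra1b* then ran from -0.16 to 0.39 and *Adra1d* from -0.022 to 0.40. *Crtc2* was positive with total counts (0.00022) and by limma (0.0060, 0.0061 with the smaller pseudocount). *Lyz2* was positive with total counts (0.0046), by limma on log2(TPM + 1) or log2(TPM + 0.1) (0.14) and ran from -0.32 to 0.39 with 1 library left out. *Ucp1* was positive by limma (0.92 on log2(TPM + 1), 0.94 on log2(TPM + 0.1)) and ran from -0.98 to 1.73. *Rgs2* ran from -0.15 to 0.46, *Sbsn* from -0.72 to 0.0100 and *Uchl1* from -0.11 to 0.58. None of these was called in any of those fits. *Ckm*, *S100b* and *Alb* kept their direction but were called in 3, 3 and 1 of the 6 fits with 1 library left out, and limma on log2(TPM + 1) without a filter did not call *Ckm* or *Alb*. *Mup16* was -9.10 without Cebpa_ASKO 1 (-8.36 with all libraries).

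Replicate numbers are shared by the genotypes, but libraries with the same number did not deviate together (correlations across genes 0.0662, 0.0278 and -0.201), so the samples were not taken as paired. With the replicate number as a block, 370 genes were called (74 higher, 296 lower), *Adrb3* was -6.71 (edgeR adjusted p = 0.00639), *Lyz2* was 0.082 and *Ucp1* 0.83, neither called. The block ended the calls of *Akap1*, *Alb*, *Hcar1*, *Hcar2*, *Hpd*, *Plcb1*, *Plin1*, *Ptger3* and *Sctr*.

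Depth limits *Adra2b* and *Adra2c*, which with no filter had log2 fold changes of 0.49 and -0.20 (standard errors 0.60 and 0.87). With 3 libraries of each genotype, an exact permutation test cannot go below 0.1.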
